A study of Mus musculus with 8 samples.

Results

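Solute carriers are membrane proteins that move sugars, amino acids, ions, metals, nucleotides and vitamins across the plasma membrane and the membranes of organelles. They are grouped into numbered Slc families by sequence. Germ cells of the testis use several of them: glucose, fructose and monocarboxylate carriers bring in fuel, carnitine carriers serve fatty acid oxidation, and sodium/proton and anion exchangers set pH and ion content, which matters for sperm motility and capacitation. The mitochondrial carriers of the Slc25a family were left out. The members described here were chosen by name alone, as transcripts in the 3 deposited tables whose gene symbol starts with Slc and a digit and not with Slc25a, each transcript counted once. There were 224 such transcripts of 144 genes, of 19077 distinct transcripts of 12200 genes in all. Of these, 149 transcripts of 106 genes had a mean over the genotypes of at least 1 FPKM (fragments per kilobase of transcript and per unit of sequenced reads) and were carried through the comparisons, as were 14887 transcripts of the whole tables. The symbols Slc4a1ap, Slc7a6os, Slc9a3r1 and Slc9a3r2 match the pattern but name adaptor or associated proteins and not carriers, and they were kept in a group of their own.

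RNA came from testis cells of C57BL/6 mice aged 26 days, of genotype Tdrd6-/- (4 libraries) or Tdrd6+/- (4 libraries). TDRD6 is a tudor domain protein of the chromatoid body, a cytoplasmic RNA granule of round spermatids. The mutant allele expresses human CD4 (hCD4) from the Tdrd6 start codon. The heterozygous controls carry this marker too, and cells of either genotype were enriched with magnetic beads against it. The study describes the product as enriched in, not made up only of, round spermatids. By flow cytometry it reports similar shares of round spermatids, and of primary and secondary spermatocytes, in both genotypes. The labels name poly-dT selection of the RNA, whereas the study's methods name rRNA depletion. Each genotype has a single pooled value per transcript in the tables. The spread between libraries cannot be computed from such values, so no difference was tested here and differences are given as sizes. In such bulk RNA, fewer cells of a type cannot be told apart from less RNA per cell.

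The targeted gene matched the labels: the most abundant Tdrd6 transcript stood at 40.6 FPKM in Tdrd6+/- and 1.29 FPKM in Tdrd6-/-. Late spermatid markers were lower in Tdrd6-/- by at least 1.5-fold in 5 of 7 genes, with a summed level of 20626 FPKM in Tdrd6+/- and 5553 FPKM in Tdrd6-/-. Round spermatid and acrosome markers were lower by at least 1.5-fold in 4 of 9 genes, and the other 5 stayed within 1.5-fold. All 6 pachytene and diplotene markers stayed within 1.5-fold. Sertoli and Leydig markers that were listed reached at most 11.1 and 19.6 FPKM in Tdrd6+/-, and of the blood and immune markers Lyz2 was the only one listed, at 0.497 and 0.770 FPKM. The part of these shifts in the differences below was not tested. The FPKM of all transcripts that passed summed to 593023 in Tdrd6+/- and to 491658 in Tdrd6-/-, while their median log2 ratio was 0.00029.

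The letters at a splice junction are among those that tell reads of 2 isoforms of a gene apart. Isoform pairs of 3 genes are shown because their isoforms differed in the ratio between the genotypes, and the pairs were picked after these values were seen. The last 15 bases of the shared exon are in lower case and the first 15 bases of the next exon of each isoform are in capitals. All lie in coding sequence on chromosome 2 of mm9, and each is read in the direction of the gene. The Slc39a13 isoforms share the exon that ends at 90905739 on the minus strand and then continue at 90904961 or at 90905164. The Slc9a8 isoforms share the exon that ends at 167249797 on the plus strand and continue at 167260282 or at 167266629. The Slc30a4 isoforms share the exon that ends at 122527766 on the minus strand and continue at 122520277 or at 122515288.
Slc39a13 ENSMUST00000079976: gaggaccccagccagGTCAGTGGCTATCTC
Slc39a13 ENSMUST00000111436: gaggaccccagccagGCCCCCAGCAAAGAC
Slc9a8 ENSMUST00000047815: gcctcctcgtcctagCCATCTGCATCATCC
Slc9a8 ENSMUST00000109218: gcctcctcgtcctagGTATTCTCATGGGAG
Slc30a4 ENSMUST00000005952: tcggagagcttgtagGTGGATACATGGCAA
Slc30a4 ENSMUST00000099457: tcggagagcttgtagAGGTTTTGTCGGCCA

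The most abundant carriers were those of sugars, carnitine and related organic ions, and they differed little between the genotypes. The 15 transcripts of highest mean FPKM held 67.4% of the summed FPKM of all listed members in Tdrd6+/- and 67.5% in Tdrd6-/-, and the first 3 alone held 37.6% and 39.9%. None of the 15 differed by 1.5-fold. Slc2a3, the high-affinity glucose transporter of sperm and neurons (chr6:122677827-122692763), was at 483 FPKM in Tdrd6+/- and 538 FPKM in Tdrd6-/-. It ranked 150 among the 19077 transcripts by mean FPKM. Slc2a5, the fructose transporter (chr4:149493392-149518278), was at 338 and 321 FPKM. Slc2a8, a hexose transporter of intracellular membranes and the acrosome, was lower in Tdrd6-/-, at 96.3 and 73.5 FPKM, a log2 ratio of -0.39. Slc22a16, a carnitine transporter in human testis (chr10:40290142-40323938) was nearly equal at 199 and 203 FPKM. Slc22a14, an organic ion carrier needed for male fertility in mice, was at 176 and 141 FPKM. Slc22a21, a carnitine transporter, was at 58.4 and 53.4 FPKM.

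**Figure D1:**
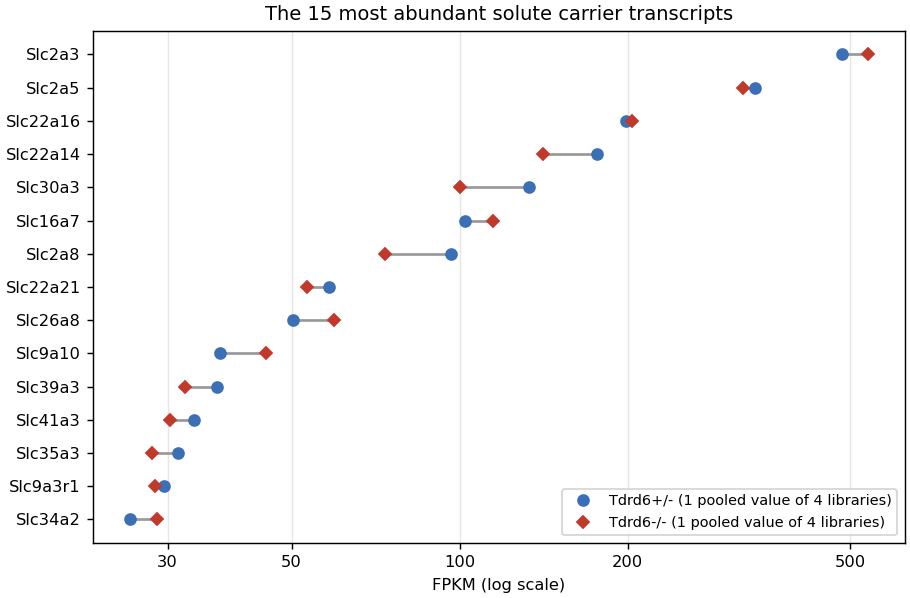
Pooled FPKM (log axis) in Tdrd6+/- (circles) and Tdrd6-/- (diamonds) of the 15 member transcripts of highest mean FPKM. Slc9a3r1 among them is not a carrier. Each symbol is 1 pooled value with no error bar, and the pairs lie close together, from 483 and 538 FPKM for Slc2a3 to 25.7 and 28.7 FPKM for Slc34a2.

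Of the other abundant members, Slc30a3 moves zinc into vesicles and had the log2 ratio farthest from 0 among the 15, at 133 FPKM in Tdrd6+/- and 100.1 FPKM in Tdrd6-/-, a log2 ratio of -0.41. Slc16a7, a high-affinity pyruvate and lactate transporter, was at 102 and 115 FPKM. Slc26a8, a sperm anion transporter that binds CFTR and RACGAP1 in human (chr17:28774728-28826932), was higher at 50.2 and 59.6 FPKM. Slc9a10, the sperm-specific sodium/proton exchanger that acts with the soluble adenylyl cyclase ADCY10, was higher at 37.3 and 45.0 FPKM. Slc39a3, a zinc importer, was at 36.8 and 32.3 FPKM. Its minor transcript was at 5.55 and 3.37 FPKM, lower by at least 1.5-fold. The last 4 of the 15 were the magnesium carrier Slc41a3, the Golgi UDP-N-acetylglucosamine carrier Slc35a3, the scaffold Slc9a3r1 and the sodium-phosphate cotransporter Slc34a2. Slc41a3 was at 33.4 and 30.3 FPKM, Slc35a3 at 31.4 and 28.1 FPKM and Slc9a3r1 at 29.6 and 28.5 FPKM.

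Over the member transcripts as a whole, the 2 genotypes were about equal. Of 149 transcripts, 10 were at least 1.5-fold higher in Tdrd6-/- and 10 at least 1.5-fold lower. This is 6.71% in each direction, beside 7.96% higher and 8.78% lower over all 14887 transcripts, so neither share of transcripts exceeded the background. The counts were unequal with only the most abundant transcript of each gene, at 2 higher and 8 lower of 106, beside 5.41% and 7.30% of all genes counted in that way. They were also unequal with FPKM summed per gene, as given further on. At 2-fold, 2 members were higher and 3 lower, beside 2.06% and 2.42% of all transcripts. The median log2 ratio of members was -0.0050, with 74 transcripts above 0 and 75 below. Among the 43 members with a mean of at least 10 FPKM none differed by 1.5-fold in either direction, where 2.93% of the 6139 transcripts of that abundance were higher and 8.36% lower. Every member past 1.5-fold therefore had a mean under 10 FPKM.

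**Figure D2:**
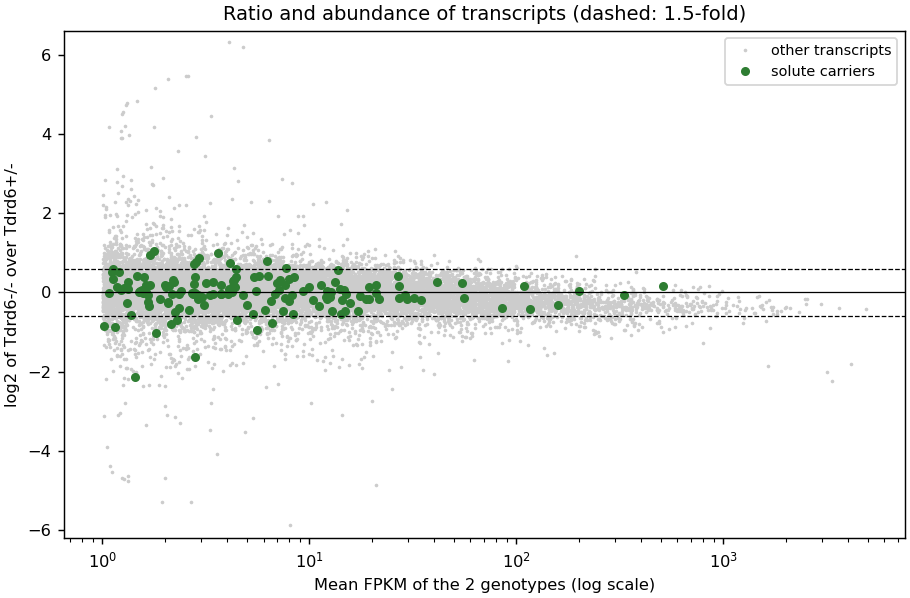
Log2 ratio of Tdrd6-/- over Tdrd6+/- against mean FPKM (log axis) for the 149 member transcripts (green) and all other transcripts with a mean of at least 1 FPKM (grey). The members include 5 transcripts of associated proteins that are not carriers. Dashed lines mark 1.5-fold. The green points spread out at low FPKM and lie between the dashed lines above 10 FPKM.

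The lowest ratio belonged to Slc37a4, the glucose 6-phosphate carrier of the endoplasmic reticulum (chr9:44206259-44211046), at 2.41 FPKM in Tdrd6+/- and 0.470 FPKM in Tdrd6-/-. Slc37a4 was 5.13-fold lower without the pseudocount, and had a log2 ratio of -2.14 with it. Its other family members that passed did not share this: Slc37a1 was at 3.79 and 3.66 FPKM, and Slc37a2 at 1.19 and 1.46 FPKM. G6pc3, a catalytic subunit of glucose 6-phosphatase, was at 237 and 194 FPKM. The second lowest was a transcript of Slc39a13, a zinc transporter (chr2:90901948-90910574), at 4.29 and 1.31 FPKM. Its other passing transcripts were also lower, at 2.76 and 1.53 FPKM and at 1.67 and 1.09 FPKM. The last of these was 1.53-fold lower without the pseudocount and just short of the 1.5-fold threshold with it. Slc7a2, a transporter of cationic amino acids, was at 2.47 and 1.16 FPKM.

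Further members at least 1.5-fold lower were Slc30a4, a zinc exporter, at 7.39 and 3.80 FPKM for 1 transcript. Its other transcript was at 2.63 and 1.84 FPKM, below the threshold. The zinc importer Slc39a4 was at 1.52 and 0.786 FPKM, and the zinc exporter Slc30a2 at 1.33 and 0.699 FPKM. Slc17a7, a vesicular glutamate transporter, was at 8.34 and 4.82 FPKM, and Slc10a2, the bile acid transporter of the ileum, at 2.86 and 1.73 FPKM. Zinc carriers supplied 6 of the 10 lower transcripts and were 25 of the 149 members, or 16.8%. Of the lower transcripts, Slc37a4, Slc39a4 and Slc30a2 were under 1 FPKM in Tdrd6-/- and passed the minimum only through Tdrd6+/-. Just short of the threshold were the copper carrier Slc31a2 at 17.0 and 11.6 FPKM and Slc35c2 of the nucleotide sugar family at 6.33 and 4.33 FPKM. Several transcripts under the mean FPKM of 1 had still larger ratios, among them Slc12a2, a sodium-potassium-chloride cotransporter, at 1.43 and 0.0134 FPKM. No error was computed for such values. A Slc35c2 transcript at 0.994 FPKM in Tdrd6+/- was listed at 0 in Tdrd6-/-.

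The 10 transcripts at least 1.5-fold higher in Tdrd6-/- were mostly minor isoforms: 8 of them were not the most abundant listed transcript of their gene. Among the 10 lower ones 2 were not. The share higher also fell outside the members. It was 7.96% of all transcripts and 5.41% with only the most abundant transcript of each gene. Slc4a1ap, an adaptor and not a carrier, had the largest ratio, with its minor transcript at 1.13 and 2.44 FPKM while its main transcript was at 7.01 and 8.91 FPKM. The minor transcript of the zinc importer Slc39a10 was at 2.36 and 4.85 FPKM, while its main transcript was at 12.1 and 14.4 FPKM. Slc9a8, a sodium/proton exchanger needed for acrosome formation in mice, was at 1.13 and 2.27 FPKM for its minor and 10.6 and 12.1 FPKM for its main transcript. In these 3 genes the less abundant isoform had the larger ratio.

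Slc39a8, an importer of zinc and manganese, had a transcript at 2.04 and 3.83 FPKM, and its main transcript was just under the threshold at 11.1 and 16.4 FPKM. Slc8a2, a sodium/calcium exchanger, was at 4.56 and 7.92 FPKM. The amino acid carrier Slc38a6 was at 2.07 and 3.59 FPKM for the transcript that passed the threshold. Slc45a4 of the sugar group was at 3.04 and 5.20 FPKM. Slc7a5, the light chain of a large neutral amino acid transporter, was at 6.05 and 9.34 FPKM for its main transcript. Its minor transcript, under the mean FPKM of 1, went the other way at 1.30 and 0.0532 FPKM. Summed per gene, Slc7a5 was at 7.35 and 9.39 FPKM, under the threshold. The main transcript of its heavy chain Slc3a2 was nearly equal at 12.6 and 12.7 FPKM. Slc39a7, which releases zinc from the endoplasmic reticulum and Golgi, was at 0.881 and 1.37 FPKM, and a further Slc39a7 transcript at 2.72 and 2.68 FPKM. Just under the threshold followed Slc35f5 at 3.50 and 5.29 FPKM, which passed it without the pseudocount, a minor transcript of the zinc carrier Slc30a5 at 0.903 and 1.33 FPKM, and a long transcript of the amino acid carrier Slc36a4 at 0.979 and 1.43 FPKM. The cationic amino acid transporter Slc7a1 was at 1.24 and 1.70 FPKM.

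By substrate, the zinc carriers (families Slc30 and Slc39) made up 9 of the 20 members past 1.5-fold. Slc30 proteins move zinc out of the cytosol and Slc39 proteins mostly into it. Of 25 transcripts of 15 genes, 3 were higher and 6 lower by at least 1.5-fold, and 16, or 64.0%, stayed within it. Among the 16, the Slc39a13 transcript at 1.67 and 1.09 FPKM would be 1.53-fold lower without the pseudocount. Of all 14887 transcripts, 83.3% stayed within 1.5-fold. Of the 9 zinc transcripts past the threshold, 3 passed the FPKM minimum only through the genotype in which they were higher, namely Slc39a4, Slc30a2 and Slc39a7. The median of the zinc group was -0.06, with Slc30 and Slc39 transcripts on both sides of 0. Slc39a6, a zinc importer, was at 23.0 and 30.6 FPKM, and Slc30a1, the plasma membrane zinc exporter, at 17.3 and 12.4 FPKM for its short transcript. Because several transcripts came from the same genes, these counts are not independent of each other.

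**Figure D3:**
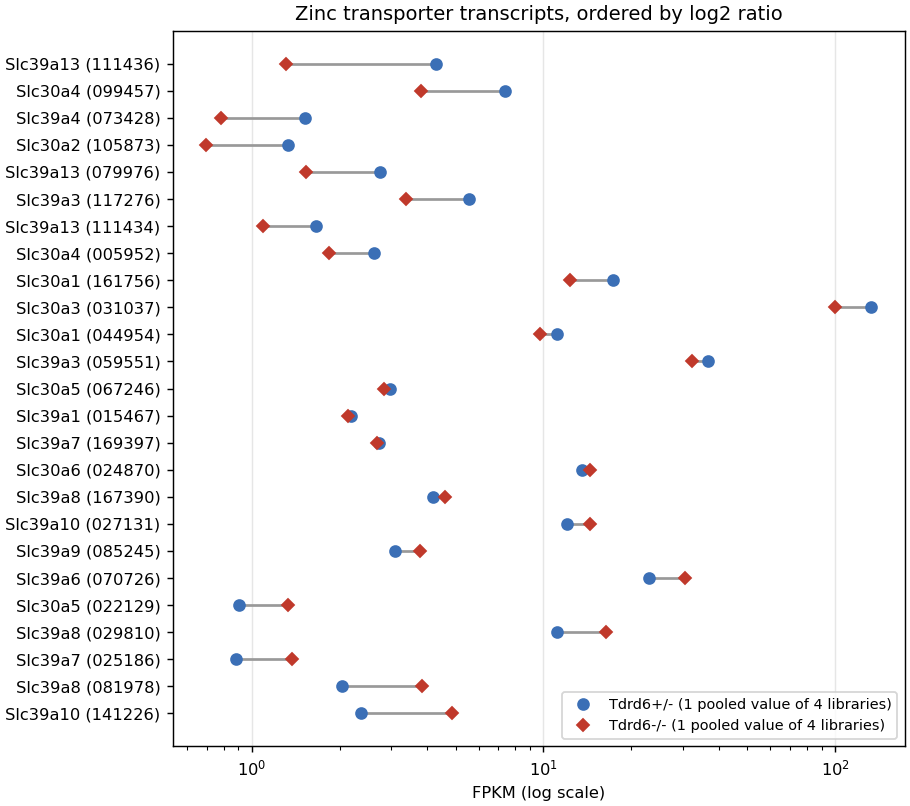
Pooled FPKM (log axis) in Tdrd6+/- (circles) and Tdrd6-/- (diamonds) of the 25 zinc transporter transcripts that passed, ordered by log2 ratio with the lowest at the top. The number in brackets is the end of the Ensembl transcript identifier. Slc39a13 at the top runs from 4.29 to 1.31 FPKM and Slc39a10 at the bottom from 2.36 to 4.85 FPKM.

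The anion carriers lay mostly above 0. All 9 transcripts of the bicarbonate and other anion carriers were within 1.5-fold and 8 of them were above 0, with a median of 0.23. Of all 14887 transcripts 83.3% were within 1.5-fold and 7448 were above 0. Of those over 3000 to 4000 nt 67.8% were above 0, where the median length of these 9 was 3670 nt. Slc4a2, an anion exchanger, was at 4.21 and 4.26 FPKM. The sodium-bicarbonate cotransporter Slc4a7 was at 6.44 and 7.57 FPKM for its short transcript, and its long one, the member of the group below 0, was at 2.02 and 1.79 FPKM. The sulfate transporter Slc26a2 was at 3.84 and 4.72 FPKM for its medium transcript. Among sodium/proton exchangers, Slc9a5 was at 14.3 and 15.04 FPKM. In the cation-chloride group the potassium-chloride cotransporter Slc12a7 was at 3.49 and 4.02 FPKM.

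Carriers of amino acids, nucleotide sugars and organic ions stayed close to equality. Of 27 amino acid carrier transcripts, 2 were higher and 1 lower by at least 1.5-fold, beside 7.96% and 8.78% of all transcripts. Of the 27, 18 lay above 0, or 66.7%. Of all transcripts over 3000 to 4000 nt 67.8% were above 0, where the median length of these 27 was 3049 nt. Slc38a10 was at 19.7 and 22.3 FPKM and the lysosomal arginine sensor Slc38a9 at 19.8 and 17.7 FPKM. Slc7a6, which pairs with Slc3a2, was at 18.4 and 20.3 FPKM. The taurine transporter Slc6a6 was nearly equal at 11.9 and 12.3 FPKM, and the glutamate transporter Slc1a2 was at 8.71 and 6.24 FPKM for its most abundant transcript. Slc36a3, expressed in testis, was at 13.2 and 12.1 FPKM. The 12 nucleotide sugar transcripts were all within 1.5-fold, with 9 below 0 and a median of -0.10. In this family Slc35b1 was at 14.98 and 10.7 FPKM and Slc35a5 at 15.2 and 14.9 FPKM. The 9 organic cation, anion and carnitine transcripts were within 1.5-fold, with a median of -0.13. Among them the cation extruder Slc47a2 was at 28.6 and 25.7 FPKM, Slc22a18 at 20.0 and 14.5 FPKM and Slc22a15 at 20.4 and 18.2 FPKM.

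The sugar group had 1 of 8 transcripts higher by 1.5-fold and none lower, beside 7.96% and 8.78% of all transcripts. The group summed to 942 FPKM in Tdrd6+/- and 961 FPKM in Tdrd6-/-. The myo-inositol transporter Slc5a3 was at 1.502 and 1.73 FPKM. The monocarboxylate carriers Slc16a1 and Slc16a3 were at 1.11 and 1.23 FPKM and at 3.03 and 2.19 FPKM, far under Slc16a7. Of 11 lipid and fatty acid transcripts, 1 was lower by 1.5-fold, and 9 lay below 0 and 18.2% above. Of all transcripts over 2000 to 3000 nt 54.9% were above 0, where the median length of these 11 was 2559 nt. The fatty acid transporter Slc27a1 was at 6.90 and 6.69 FPKM, and the acetyl-CoA carrier Slc33a1 at 12.9 and 11.5 FPKM for its short transcript. The 6 nucleoside transcripts, 4 of them of the equilibrative transporter Slc29a1, were within 1.5-fold, with its most abundant transcript at 15.3 and 13.3 FPKM. All 8 transcripts of other metal carriers were within 1.5-fold as well, where 83.3% of all transcripts were. Among them the copper importer Slc31a1 was at 3.79 and 5.04 FPKM and the iron transporter Slc11a2 at 1.97 and 2.21 FPKM.

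Smaller groups held few transcripts. The citrate transporter Slc13a5 was at 21.1 and 20.8 FPKM, the urea transporter Slc14a2 at 18.2 and 17.0 FPKM and the histidine and peptide transporter Slc15a4 at 7.09 and 8.15 FPKM. Of the vitamin carriers, the riboflavin transporter Slc52a2 was at 12.5 and 9.74 FPKM and the thiamine transporter Slc19a2 at 4.70 and 6.15 FPKM. The phosphate transporter Slc20a1 was at 2.88 and 3.43 FPKM. The heme carrier Slc48a1 was under the mean FPKM of 1. Of the associated proteins, Slc7a6os was at 17.1 and 14.1 FPKM and Slc9a3r2 at 4.17 and 4.28 FPKM. Among transcripts that passed the FPKM minimum in the lipid, nucleoside, other metal, vesicular, sugar phosphate, phosphate, vitamin, dicarboxylate, peptide and urea groups, only Slc10a2, Slc17a7 and Slc37a4 differed by 1.5-fold.

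Isoforms of a gene often had different ratios. There were 35 genes with at least 2 passing transcripts, and in 10 of them the transcripts lay on opposite sides of 0. The median range of the log2 ratio within a gene was 0.41 and the largest 1.09, for Slc8a2. Its transcripts stood at 4.56 and 7.92 FPKM and at 3.44 and 2.75 FPKM. They share 4231 bases, and 2 bases are particular to the second. Over the 53 pairs of passing transcripts of a gene, 36 shared at least 90% of the shorter transcript, and no error was computed for how reads were divided between them. In Slc9a8 all 2055 bases of the minor transcript are held by the main one, and the letters that join its exons are the ones printed above.

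**Figure D4:**
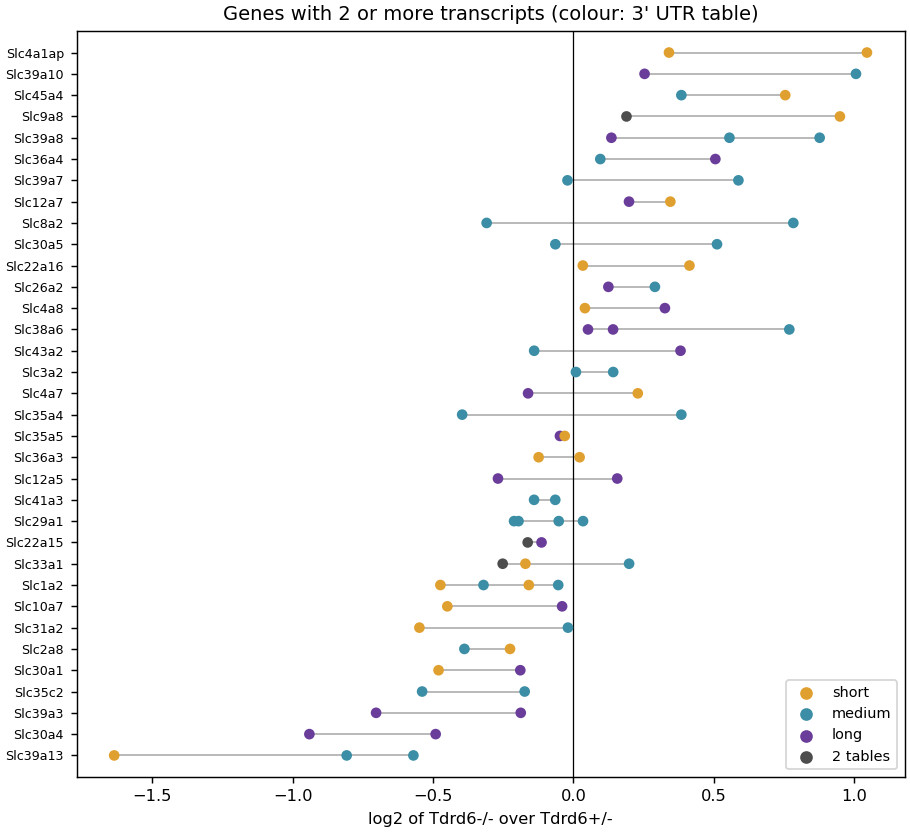
Log2 ratio of Tdrd6-/- over Tdrd6+/- for each passing transcript of 34 of the 35 genes with at least 2, ordered by the gene's median, with colour for the 3' UTR table. Grey lines span the transcripts of a gene, which range from nearly 0 up to 1.09 apart.

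Summing FPKM over the listed transcripts of a gene removed the upper tail, as counted with the pseudocount. Without it Slc35f5, at 3.50 and 5.29 FPKM, would be 1.51-fold higher. This measure was added after the isoform values had been seen. Of 111 genes with a mean of at least 1 FPKM, 0 were at least 1.5-fold higher and 8 at least 1.5-fold lower, beside 4.53% and 6.62% of all 10482 genes. The 8 lower genes were Slc37a4, Slc7a2, Slc39a13, Slc39a4, Slc30a4, Slc17a7, Slc30a2 and Slc10a2. Slc39a13 summed to 9.60 and 4.91 FPKM, and Slc30a4 to 10.01 and 5.64 FPKM. Of these 8 genes, 4 carry zinc, where 15 of the 111 genes, or 13.5%, do. The zinc carrier Slc39a4, at 1.52 and 0.786 FPKM, passed the minimum only through Tdrd6+/-. So did Slc37a4, at 2.41 and 0.470 FPKM. Slc39a8 summed to 17.3 and 24.8 FPKM and Slc39a10 to 14.4 and 19.3 FPKM, both under the threshold.

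The tables divide transcripts by 3' UTR length, up to 350 nt (short), up to 1500 nt (medium) and longer. Members in the short table had a median log2 ratio of -0.02 (38 transcripts), where all short transcripts had -0.14. The medium members had -0.03 (75 transcripts) beside 0.02. The long members had 0.13 (42 transcripts) beside 0.20. The long class lay above the short one among the members too, in a narrower span. Of the long members 26 of 42 lay above 0, or 61.9%, beside 72.0% of all long transcripts. In the short class 3 members were higher and 3 lower by at least 1.5-fold, beside 7.18% and 13.9% of all short transcripts, and in the medium class 5 and 4, beside 8.23% and 6.01%. In the long class 2 members were higher and 3 lower by at least 1.5-fold, beside 9.64% and 2.97% of all transcripts of that class. The long members lower by 1.5-fold were Slc7a2, a Slc30a4 transcript and the minor Slc39a3 transcript.

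**Figure D5:**
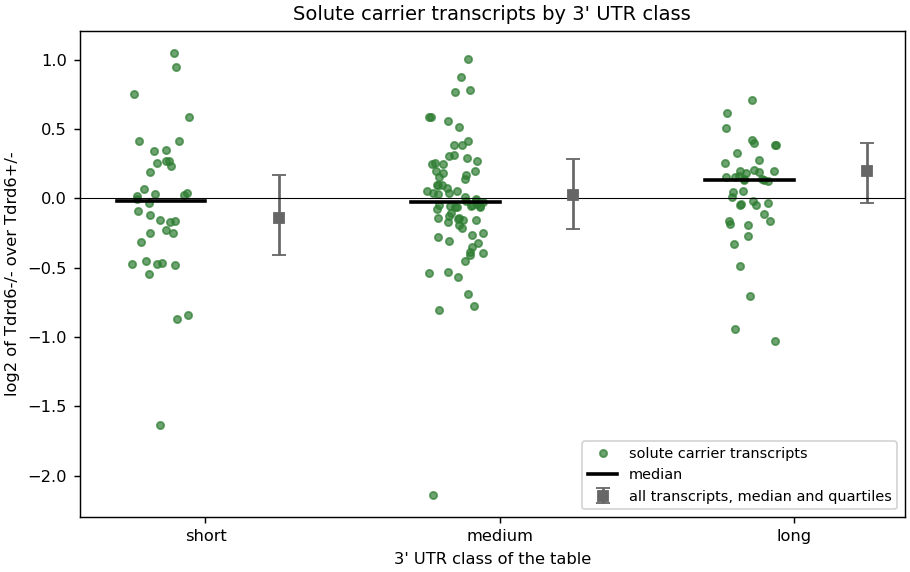
Log2 ratio of Tdrd6-/- over Tdrd6+/- of member transcripts (green points, black line the median) in the short, medium and long 3' UTR tables, beside the median and quartiles of all transcripts of each table (grey squares). A transcript listed in 2 tables is drawn in each. The medians of members are -0.02, -0.03 and 0.13.

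Within a gene, 21 genes had transcripts of different classes, among them Slc1a2, Slc2a8, Slc4a7, Slc4a8, Slc9a8, Slc10a7, Slc12a7, Slc22a15, Slc26a2, Slc30a1, Slc31a2, Slc33a1, Slc35a5, Slc36a4, Slc38a6, Slc39a8, Slc39a10, Slc39a13, Slc43a2 and Slc45a4. The transcript with the longer 3' UTR by GENCODE had the higher ratio in 12 of them and the lower ratio in 9, beside 58.4% higher among 1492 genes of the whole tables. In Slc2a8 the order by GENCODE length was opposite to that of the tables, and by table the counts were 11 and 10. The median difference was 0.10 among members and 0.09 over all such genes. Slc31a2, a copper carrier, had the higher ratio in its longer form: its short transcript was at 17.0 and 11.6 FPKM and its medium one at 1.59 and 1.56 FPKM. Slc45a4 ran the other way, with its short transcript at 3.04 and 5.20 FPKM and its medium one at 7.30 and 9.56 FPKM.

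The ratio also ran with total length. Spearman's rho across the 149 member transcripts was 0.38 with total length, 0.38 with coding length and 0.21 with 3' UTR length, as a description, since transcripts of a gene share bases and reads. Over all transcripts with a GENCODE entry these were 0.47, 0.41 and 0.31. Members were longer, with a median of 2846 nt beside 2228 nt. Members up to 2000 nt had a median log2 ratio of -0.18 (32 transcripts), beside -0.21 for all transcripts of that length. Members over 4000 nt had 0.16 (34 transcripts), beside 0.29.

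By position, the members spread over all autosomes and the X chromosome, which held 2 of the genes, Slc10a3 and Slc35a2. Chromosome 2 held most transcripts, 33 of 15 genes. Slc22a5, Slc22a21 and Slc22a4 lie on the minus strand within chr11:53678044-53841592, and their levels differed greatly. Slc22a5 was at 6.41 and 7.97 FPKM, Slc22a21 at 58.4 and 53.4 FPKM and Slc22a4 at 0.481 and 0.624 FPKM. They are related genes, and whether reads were shared among them was not tested. Slc39a7, Slc35a3 and Slc5a3 were assembled into a locus together with H2-Ke6, Hiat1 and Mrps6, so reads of these neighbours may not be fully separated.

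Of 22 genes on a testis list of carriers, chosen with earlier results of these data known, 17 were listed. Of the 17, 16 had a most abundant transcript that passed. Of these 16, 15 were within 1.5-fold, and Slc37a4, which passed the minimum only through Tdrd6+/-, was lower. Counted in that way, 5.41% of all genes were higher and 7.30% lower. The median was -0.0049. Slc9b1, Slc9b2, Slc5a1, Slc26a3 and Slc26a6 were not analysed here. Partner proteins whose symbols the pattern does not match were read as well. Bsg, the chaperone of monocarboxylate transporters, was at 712 and 532 FPKM. Adcy10 was at 25.2 and 27.4 FPKM, the sperm sodium pump subunit Atp1a4 at 61.4 and 53.4 FPKM, and Cftr at 3.07 and 2.67 FPKM. Racgap1, the binding partner of SLC26A8, was under the mean FPKM of 1, at 1.06 and 0.231 FPKM. The organic anion transporters Slco6c1 and Slco6d1 were at 74.7 and 78.8 FPKM and at 14.4 and 16.9 FPKM.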

How the data were processed

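The authors aligned reads to mm9 with TopHat2 2.0.9 and Bowtie2, supported by Ensembl annotation, and made transcript values with Cufflinks 2.1.1 and Cuffdiff (versions from the submitters' processing notes). The deposited FPKM are 1 pooled value made by the authors per genotype over its 4 libraries, in 3 tables by 3' UTR length. How libraries were scaled to each other is not given in the sources used here, and the depth per sample is unknown from the tables. The tables also hold the authors' fold changes, test statistics, p-values and q-values, which were not used.

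Each transcript was counted once (19882 table entries, 19077 transcripts). The log2 ratio is log2((Tdrd6-/- + 0.1)/(Tdrd6+/- + 0.1)), which understates the change of low transcripts. A mean of at least 1 FPKM was required, and a 1.5-fold difference was counted. The script was tested on simulated data. Lengths and positions came from GENCODE M1 on mm9, in which all 224 members had an entry. For 5 of 215 members in a single table that 3' UTR length lay outside the class of the table. Class medians count a transcript in each table that lists it. Named are the 15 transcripts with the largest ratios in each direction, the 15 of highest FPKM, genes with transcripts of different classes, a testis list, and examples by substrate group. The junction pairs and further members given by group were named after their values were seen. Members and lists were chosen with earlier results of these data known. Alternatives were another pseudocount, filter, fold, 1 transcript per gene, centring, and transcripts of 1 table. Python 3.11.15, numpy 2.4.6, pandas 2.3.3, scipy 1.17.1 and matplotlib 3.10.9 were used. Some genes that the naming rule covers are not reported here.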

Additional observations from a re-analysis of the deposited data

How the results depend on the processing

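No paired analysis was possible because each genotype has a single pooled value per transcript, and for the same reason leaving out a library was not run. With 10 members higher and 10 lower as reported, the counts were 6 and 5 of 149 with a pseudocount of 1 FPKM (4.46% and 6.16% of all transcripts), 23 and 25 of 224 with no filter (10.4% and 10.4%), 2 and 2 of 68 at a mean of at least 5 FPKM (4.45% and 8.07%), and 2 and 3 of 149 at 2-fold (2.06% and 2.42%). With 1 transcript per gene 2 were higher and 8 lower of 106 (5.41% and 7.30%), and with FPKM summed per gene, an alternative chosen after seeing the data, 0 and 8 of 111 (4.53% and 6.62%). A mean of at least 5 FPKM moved the median log2 ratio from -0.0050 to -0.053 that of the medium class from -0.03 to -0.074 and that of the short class from -0.02 to -0.11. With 1 transcript per gene the short class stood at -0.09. The causes were not tested beyond the number of transcripts left. Over all 224 listed members, without a pseudocount 4 transcripts passed the 1.5-fold threshold that had not, and with a pseudocount of 1 FPKM 29 no longer did. The Slc35c2 transcript listed at 0 has no value without a pseudocount. A pseudocount, filter or fold cannot change the direction of a ratio, and centring moved ratios by only 0.00029. These alternatives therefore say nothing on the direction of members at least 1.5-fold apart. The depth per sample, which the study plots, is unknown from the tables, and no error was computed for any value.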
